A study of Homo sapiens with 18 samples.

Results

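The human plasma cell leukaemia line JJN3 was exposed for 24 h to amiloride at 0.4 mM or to TG003 at the same 0.4 mM, and the transcriptomes of the cells under these drugs were set against each other. Of the 18 arrays in the series, 6 make this comparison: 3 of amiloride and 3 of TG003. A further 3 arrays of JJN3 given DMSO, the solvent, show on which side of the solvent level each drug lay. All 3 groups are the same unmodified line, and they differ by the agent in the medium. The other 9 arrays come from the myeloma line KMS12-BM, where amiloride was given at 0.1 mM and TG003 at 0.4 mM, so the drugs were not matched in dose there. Each group is 1 line and cannot stand for other patients' cells, and the labels do not say whether its arrays came from separate cultures. The p-values therefore measure the spread between arrays, which may be technical. That spread was estimated over all 18 arrays, those of KMS12-BM included.

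Amiloride, a diuretic that spares potassium, blocks the sodium channel of epithelia and, at higher concentrations, sodium-proton exchangers. TG003 inhibits CLK kinases, which phosphorylate SR proteins, the serine and arginine rich factors that guide the spliceosome to its splice sites. Plasma cells secrete immunoglobulin and depend on a loaded endoplasmic reticulum and on the proteasome. JJN3 carries a translocation that activates MAF, a transcription factor that drives CCND2 (cyclin D2) and ITGB7 (integrin beta 7).

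Each gene is represented by its brightest probe set over the 18 arrays, which left 22465 genes. Values are levels on a log2 intensity scale, and a difference of 1 on that scale is 2-fold. A background reference was set at 6.99, the 95th percentile of 92 ERCC control probe sets, and 7387 genes had a JJN3 group mean above it. Genes were called when limma's adjusted p (Benjamini-Hochberg over all genes) was under 0.05. The values are per gene and do not separate splice isoforms. Where a group mean lies below the reference, the difference is one of normalized values and gives no reliable fold.

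The identity of the line was clear in its marker genes. MAF averaged 11.53 ± 0.36 under amiloride, 11.52 ± 0.29 under TG003 and 11.16 ± 0.35 under DMSO (SD, n = 3 each), while CCND1, the D cyclin of KMS12-BM, stayed at 5.98, 5.98 and 6.08. The plasma cell genes IRF4 and JCHAIN were bright, with means of 14.30 and 16.86 under amiloride, 13.61 and 16.01 under TG003, and 14.39 and 16.60 under DMSO. The plasma cell antigen CD38 lay below the background reference in all 3 groups, at 6.28, 5.63 and 6.03. SDC1, which encodes syndecan 1, was close to it at 7.16, 6.88 and 7.34. Markers of other cells were mostly below the reference: none of 13 myeloid, 1 of 13 stromal and endothelial, 1 of 14 T and NK cell and 1 of 10 erythroid and megakaryocyte markers lay above it. Between the drugs none of the myeloid and stromal markers was called, 1 T and NK cell marker (CD28) was, and 1 erythroid marker was. That was HBD, a haemoglobin chain, with 6.99, 6.34 and 5.5 under amiloride, 5.22, 5.28 and 5.51 under TG003, and 7.23, 7.23 and 7.67 under DMSO (difference 0.94 ± 0.25, adjusted p = 0.014), whose amiloride and TG003 arrays overlapped and whose call was lost without the first array of either drug. The summed level of the myeloid markers ranged over 58.88 to 60.67 in amiloride arrays, 59.24 to 62.04 in TG003 arrays and 59.71 to 61.44 in DMSO arrays.

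The drugs left JJN3 in clearly different states. Amiloride arrays differed from TG003 arrays in 3807 genes (16.9% of those tested). Of these, 2366 were higher under amiloride (10.5%) and 1441 lower (6.41%). At least 2-fold apart were 239 (1.06%), of which 157 were higher (0.699%) and 82 lower (0.365%). Among the 7387 genes above the background reference 36.7% were called, 25.6% higher and 11.1% lower. All 3 amiloride arrays lay above all 3 TG003 arrays in 14.5% of genes and below them in 13.5%, and 16.3% were both called and separate. In bulk RNA a lower level in each cell and a loss of the cells that carry the RNA cannot be told apart. With each array centred on its median the split shifted, and 78.6% of called genes were higher under amiloride, against 62.1% without centring. The median difference over all genes was -0.04 and over genes above the reference 0.09. Against DMSO, amiloride changed 3317 genes (14.8%), of which 1943 rose (8.65%) and 1374 fell (6.12%). TG003 changed 2107 genes (9.38%), of which 841 rose (3.74%) and 1266 fell (5.64%). These last comparisons share the DMSO arrays with each other and their drug arrays with the direct comparison, so their values are given side by side only.

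The largest difference in favour of amiloride among called genes above the reference was that of CCL2. CCL2, the chemokine that attracts monocytes, read 11.28, 10.23 and 10.50 in amiloride arrays, 7.07, 6.59 and 6.67 in TG003 arrays, and 10.68, 9.52 and 10.54 in DMSO arrays. The amiloride and TG003 arrays did not overlap, and the TG003 mean of 6.78 was below the background reference. The difference between the drugs was 3.90 ± 0.28 (SE, adjusted p = 3.5e-07 by limma). Against DMSO amiloride differed by 0.43 (adjusted p = 0.42), while CCL2 fell by 3.47 under TG003 (adjusted p = 1.6e-06). CCR2, the receptor for CCL2, read 9.09, 8.74 and 8.50 under amiloride, 5.15, 5.11 and 5.29 under TG003, and 6.87, 6.93 and 7.31 under DMSO. Here the drugs moved to opposite sides of DMSO, by 1.74 (adjusted p = 2.9e-06) for amiloride and -1.85 (adjusted p = 1.7e-06) for TG003. The TG003 mean of CCR2, 5.19, was below the background reference.

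IGF1, the insulin-like growth factor that supports myeloma cells, showed the same arrangement at a high level. It read 12.74, 12.72 and 12.55 under amiloride, 8.98, 9.02 and 9.41 under TG003, and 11.01, 11.17 and 11.37 under DMSO. The groups were fully separate, and amiloride lay 11.6-fold above TG003 (3.53 ± 0.11 log2, adjusted p = 2.8e-11). BHLHE41, a repressor that acts in the circadian clock, differed by 2.69 ± 0.09 (adjusted p = 2.8e-11), with 11.03, 10.82 and 11 under amiloride, 8.22, 8.14 and 8.41 under TG003 and 9.42, 9.18 and 9.39 under DMSO. KCNN3, a calcium-activated potassium channel, differed by 3.22 ± 0.17 (adjusted p = 1.2e-08), again with amiloride above and TG003 below DMSO. MORC1, a protein studied in the male germ line, differed by 3.28 ± 0.14 (adjusted p = 7.6e-10).

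**Figure D1:**
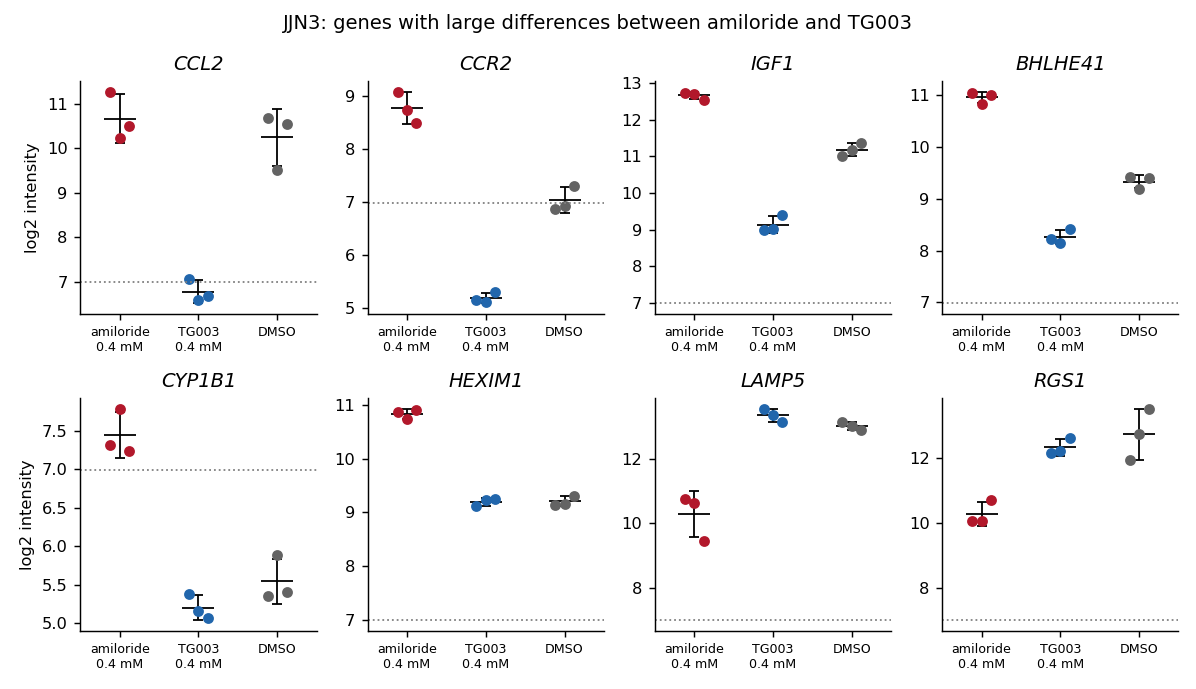
Log2 intensity of 8 genes in each JJN3 array under amiloride, TG003 and DMSO. Coloured points are arrays, bars are the mean and SD of 3 arrays, and the dotted line is the background reference of 6.99. CCR2, IGF1 and BHLHE41 lie above DMSO under amiloride and below it under TG003, while LAMP5 and RGS1 are low under amiloride.

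Of the 25 called genes with the largest positive difference, whose differences ran between 1.51 and 3.90, the DMSO mean lay between the drugs in 21. Against DMSO amiloride raised 15 of the 25 and lowered 1, and TG003 lowered 22. Over all genes amiloride raised 8.65% and lowered 6.12%, and TG003 lowered 5.64%. The 25 were picked by the difference between the same drug arrays, which by itself favours such counts. TG003 was the drug farther from DMSO in 19. In 7 of the 25 the lower drug mean was below the background reference, so that only the higher one met the rule. The differences of those 7 give no reliable fold. CCR1, another chemokine receptor, read 10.96, 11.25 and 11.38 under amiloride, 9.80, 9.89 and 8.65 under TG003, and 11.32, 11.21 and 11.41 under DMSO, so the shift was on the TG003 side. TNFRSF17, which encodes the plasma cell antigen BCMA, followed suit at 8.54, 8.45 and 7.62 under amiloride, 6.44, 6.58 and 6.74 under TG003, and 8.97, 8.75 and 8.31 under DMSO (difference 1.62 ± 0.26, adjusted p = 0.0004). Its TG003 mean of 6.58 was below the reference. IL10, the anti-inflammatory cytokine, rose by 1.03 under amiloride against DMSO (adjusted p = 0.00065), and its TG003 difference of -0.56 did not pass (adjusted p = 0.052). The IL10 means of 5.94 under TG003 and 6.51 under DMSO were both below the reference. AMPD1, the muscle AMP deaminase, fell by 2.05 with amiloride and fell by 3.75 with TG003. Its TG003 mean of 6.44 was also below the reference. IGLC7 and CRYBB1 also met the rule, but were not called with the amiloride and TG003 groups fitted alone (adjusted p = 0.059 and 0.089). CRYBB1 also lost its call without the third amiloride array (adjusted p = 0.055) or the third TG003 array (adjusted p = 0.058).

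Of the 25 called genes with the largest negative difference, sized 1.34 to 3.07, amiloride lowered 24 against DMSO. It was the drug farther from DMSO in 21, while TG003 raised 6 and lowered 2. Over all genes amiloride lowered 6.12%, and TG003 raised 3.74% and lowered 5.64%. The choice of these genes by the difference between the drugs favours such counts. In 2 of the 25 the lower drug mean was below the background reference. LAMP5, a lysosome-associated membrane protein of brain and dendritic cells, read 10.75, 10.63 and 9.45 in amiloride arrays, 13.55, 13.36 and 13.15 in TG003 arrays, and 13.15, 13.02 and 12.91 in DMSO arrays. All amiloride arrays lay under all others, and the level was 8.42-fold lower than with TG003 (-3.07 ± 0.23 log2, adjusted p = 6.6e-07). RGS1, which dampens chemokine receptor signalling, read 10.07, 10.07 and 10.71 under amiloride, 12.16, 12.22 and 12.64 under TG003, and 11.95, 12.76 and 13.53 under DMSO (difference -2.06 ± 0.28, adjusted p = 9.3e-05). LGMN, a lysosomal protease that processes antigen, differed by -1.80 ± 0.21 (adjusted p = 2.5e-05). DGAT1, which completes triglyceride synthesis, differed by -1.56 ± 0.10 (adjusted p = 9.9e-08). SNORD111, a small nucleolar RNA, met the rule but lost its call without the third amiloride array (adjusted p = 0.068) or the third TG003 array (adjusted p = 0.064).

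Genes were next grouped into 58 lists by role, with 1101 measured members, of which 794 lay above the background reference. The lists and members were chosen with earlier results of these data known. A high share of called members is therefore a description and no independent test. Counts of called members are set beside the 25.6% higher and 11.1% lower among all genes above the reference. Over all genes tested the shares were 10.5% and 6.41%. A list's share is of all its measured members, including those below the reference, so neither pair is an exact match. For counts against DMSO only the shares over all genes were computed. Amiloride raised 8.65% and lowered 6.12%, and TG003 raised 3.74% and lowered 5.64%. Most listed genes lay above the reference, so these shares are a loose comparison. DNA replication, the copying machinery of S phase, separated the drugs. Of 46 measured replication genes, 29 (63.0%) were lower under amiloride than under TG003 and none was higher, against 6.41% lower among all genes and 11.1% among those above the reference. The median difference was -0.44, and 43 of the 46 were below 0. Against DMSO, amiloride lowered 20 and raised none, and TG003 lowered 2 and raised 3. With arrays centred on their median 20 of the 46 were called lower, and without the third amiloride array 22.

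TK1, thymidine kinase of the nucleotide salvage route, led the list. It read 11.09, 10.66 and 9.84 under amiloride, 12.37, 12.24 and 12.17 under TG003, and 12.33, 11.80 and 12.13 under DMSO (difference between the drugs -1.73 ± 0.22, adjusted p = 6.4e-05). TIMELESS, which protects moving replication forks, read 9.02, 9.14 and 8.68 under amiloride, 10.66, 10.71 and 10.33 under TG003, and 9.89, 10.06 and 9.94 under DMSO. For TIMELESS the drugs lay on opposite sides of DMSO, with a fall of 1.02 under amiloride (adjusted p = 6.6e-05) and a rise of 0.60 under TG003 (adjusted p = 0.0067). CDT1, which loads the MCM helicase at origins, read 7.48, 7.34 and 6.79 under amiloride, 7.85, 8.32 and 8.37 under TG003, and 8.04, 7.96 and 8.11 under DMSO (difference -0.97 ± 0.17, adjusted p = 0.00071). The lowest of its arrays was the third amiloride array, as for TK1, TIMELESS and MCM2. MCM2, a subunit of that helicase, read 10.58, 10.50 and 9.76 under amiloride, 11.05, 11.07 and 11.01 under TG003, and 10.79, 10.75 and 10.86 under DMSO (difference -0.76 ± 0.15, adjusted p = 0.0022). CDC45, another part of the active helicase, fell against DMSO under both drugs, by 1.35 with amiloride (adjusted p = 1.3e-06) and by 0.37 with TG003 (adjusted p = 0.039). The catalytic subunit of polymerase epsilon, POLE, differed by -0.90 ± 0.13 (adjusted p = 0.00014). LIG1, which joins Okazaki fragments, differed by -0.89 ± 0.10 (adjusted p = 2.2e-05).

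Replication genes are classical targets of E2F factors, which bind near their transcription starts, so their promoters were searched. RefSeq windows of 300 bases (250 before and 50 after the start, build GRCh38.p14) were on hand for 39 of the 46. The E2F motif, searched as TTTNNCGC on either strand, occurred in 21 of the 39 (53.8%), against 6.9% of 27305 windows, and matches on opposite strands can overlap. Of 32 mitosis genes with a window 4 held it (12.5%), and of 22 damage signalling and repair genes 5 (22.7%). A match describes the letters in the window and shows no binding. The windows of TK1 and TIMELESS, with differences of -1.73 and -1.62, held no match. Those printed below were taken from the windows with a match. Windows are shown for a licensing factor, a helicase subunit and a polymerase that were all lower under amiloride, CDT1 at chr16:88803539-88803838 (plus strand), MCM2 at chr3:127598161-127598460 (plus strand) and POLE at chr12:132687293-132687592 (minus strand). They run 5′ to 3′ on the gene's strand, with matches in capitals.
CDT1: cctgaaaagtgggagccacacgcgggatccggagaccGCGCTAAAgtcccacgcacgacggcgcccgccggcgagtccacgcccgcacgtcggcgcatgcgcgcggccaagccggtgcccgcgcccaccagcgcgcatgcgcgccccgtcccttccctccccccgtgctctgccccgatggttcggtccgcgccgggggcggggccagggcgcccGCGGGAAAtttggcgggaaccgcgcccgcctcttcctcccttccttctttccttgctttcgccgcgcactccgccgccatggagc
MCM2: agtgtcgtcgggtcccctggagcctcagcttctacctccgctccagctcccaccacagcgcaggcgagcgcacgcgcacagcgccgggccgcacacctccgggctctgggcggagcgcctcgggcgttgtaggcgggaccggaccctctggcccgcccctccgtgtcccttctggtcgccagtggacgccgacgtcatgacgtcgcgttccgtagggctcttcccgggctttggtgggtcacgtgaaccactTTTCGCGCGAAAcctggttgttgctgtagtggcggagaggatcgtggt
POLE: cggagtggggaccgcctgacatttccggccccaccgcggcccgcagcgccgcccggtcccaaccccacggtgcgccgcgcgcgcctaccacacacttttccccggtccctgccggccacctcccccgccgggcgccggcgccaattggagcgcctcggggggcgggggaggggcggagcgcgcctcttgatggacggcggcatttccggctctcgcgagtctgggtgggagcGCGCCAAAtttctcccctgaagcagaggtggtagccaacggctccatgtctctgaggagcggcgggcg

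Of 24 measured checkpoint and repair genes, 11 were lower under amiloride than under TG003 and 3 higher (45.8% and 12.5%, beside 11.1% and 25.6% among all genes above the reference), and 7 stayed lower with centred arrays. The higher count fell to 1 without the third TG003 array. FANCI, of the crosslink repair pathway, was lower than with TG003 (-1.15 ± 0.13, adjusted p = 2.2e-05) and lower than with DMSO (-1.20, adjusted p = 2.3e-05). CHEK1, the S phase checkpoint kinase, differed by -0.77 ± 0.11 (adjusted p = 0.00012), with -0.24 under amiloride against DMSO (adjusted p = 0.17) and a rise of 0.52 under TG003 (adjusted p = 0.0048).

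Mitosis genes act later in the cycle. Of 39 measured, amiloride lowered 20 and TG003 17 against DMSO (beside 6.12% and 5.64% of all genes), with medians of -0.35 and -0.36. Between the drugs 6 were higher under amiloride and 5 lower (15.4% and 12.8%, beside 25.6% and 11.1% among all genes above the reference), the median was 0.01, and the 95% interval lay within 2-fold in both directions for 36 of the 39. HMMR, a spindle protein, read 11.16, 11.26 and 11.21 under amiloride, 10.16, 10.11 and 10.04 under TG003, and 10.86, 10.95 and 10.97 under DMSO (difference 1.11 ± 0.12, adjusted p = 1.1e-05). Against DMSO amiloride differed by 0.28 (adjusted p = 0.14), and HMMR fell by 0.83 under TG003 (adjusted p = 0.00028). AURKA, a spindle pole kinase, differed by 0.57 ± 0.10 (adjusted p = 0.0012). KIF18A, a kinesin that trims spindle microtubules, went the other way with 9.53, 9.70 and 9.63 under amiloride, 10.62, 10.41 and 10.32 under TG003, and 10.59, 10.57 and 10.55 under DMSO (difference -0.83 ± 0.10, adjusted p = 2.6e-05). The counts of 6 and 5 were 3 and 4 with the amiloride and TG003 groups alone, and the lower count was 9 after another quantile normalization. MKI67, the proliferation marker, showed no call (-0.12 ± 0.17, adjusted p = 0.7). Among G1 genes CCND2, the D cyclin of this line, differed by 0.86 ± 0.12 (adjusted p = 0.00013), with 0.43 under amiloride and -0.43 under TG003 against DMSO, both called (adjusted p = 0.023 and 0.037). E2F7, an E2F repressor, differed by 1.25 ± 0.18 (adjusted p = 0.00013), and fell by 1.18 under TG003 (adjusted p = 0.00041).

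**Figure D2:**
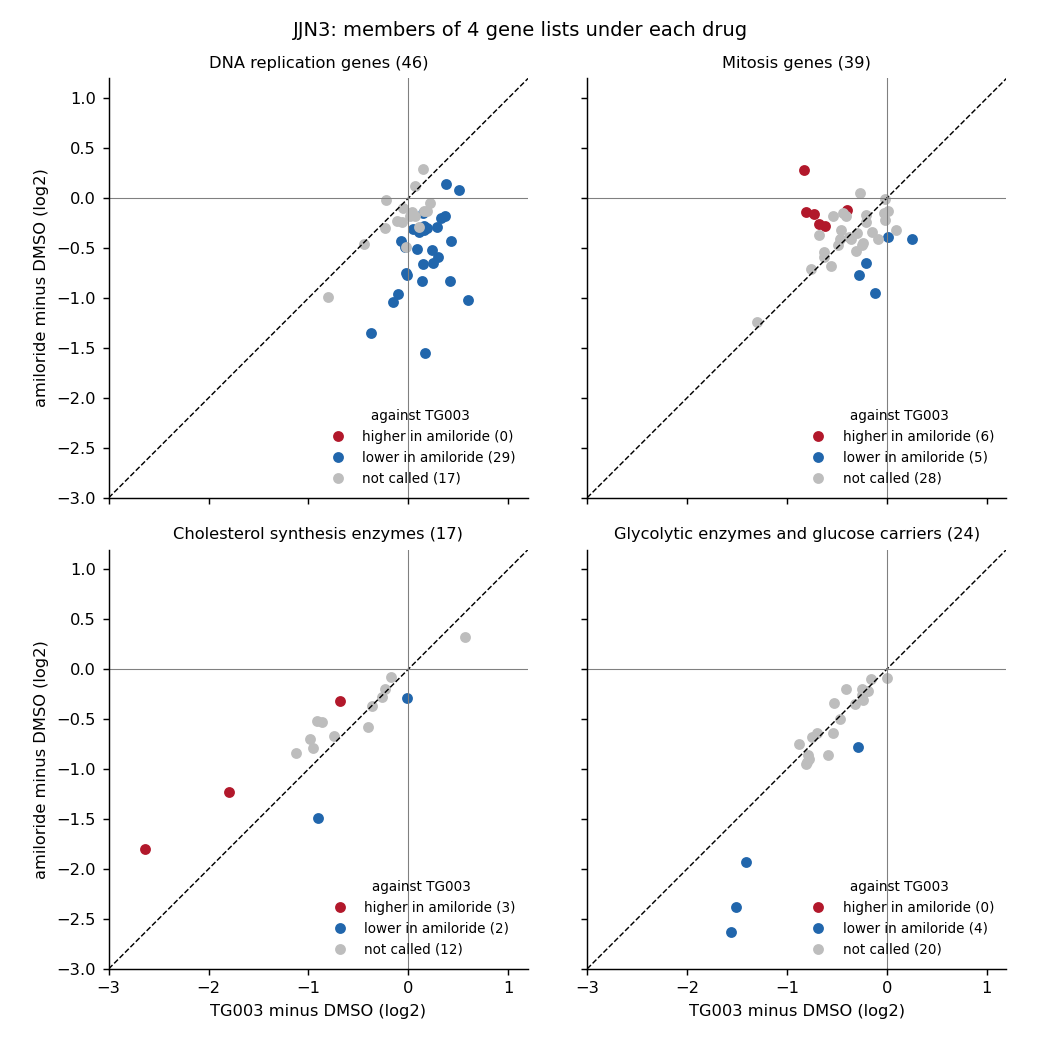
Difference from DMSO under TG003 (horizontal, log2) and under amiloride (vertical, log2) for the measured members of 4 gene lists in JJN3, 1 point per gene. Both axes use the same DMSO arrays, and points on the dashed line moved equally under both drugs. Colours mark genes called between the drugs: 43 of 46 replication genes lie below the line and 29 were called lower, while most mitosis, cholesterol and glycolysis genes lie near it.

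Serine synthesis and folate metabolism supply one-carbon units for nucleotides. Of 17 measured genes of the serine, folate and amino acid synthesis list, 10 (58.8%) were lower under amiloride than under TG003 and 1 (5.88%) higher. Among all genes above the reference 11.1% were lower and 25.6% higher. With centred arrays 7 of the 17 were called lower, and with the amiloride and TG003 groups fitted alone none was higher. Against DMSO amiloride lowered 11 of the 17 and TG003 lowered 2 and raised 1. Over all genes amiloride lowered 6.12%, and TG003 lowered 5.64% and raised 3.74%. PHGDH, the first enzyme of serine synthesis, read 7.31, 7.09 and 6.75 under amiloride, 8.91, 9.16 and 8.91 under TG003, and 8.73, 8.87 and 8.64 under DMSO. The drugs differed by -1.95 ± 0.13 (3.85-fold, adjusted p = 1.5e-07), and the amiloride mean of 7.05 was close to the background reference. PSAT1, the second enzyme, read 11.57, 11.90 and 10.99 under amiloride, 13.22, 13.58 and 12.87 under TG003, and 13.06, 13.19 and 12.48 under DMSO (difference -1.73 ± 0.26, adjusted p = 0.00021). ALDH1L2, a mitochondrial folate enzyme, read 7.58, 8.10 and 7.55 under amiloride, 9.84, 10.13 and 9.60 under TG003, and 9.54, 9.98 and 9.60 under DMSO (difference -2.11 ± 0.19, adjusted p = 2.6e-06). MTHFD2, of mitochondrial folate oxidation, differed by -0.58 ± 0.10 (adjusted p = 0.00085). PYCR1, which makes proline, differed by -0.63 ± 0.13 (adjusted p = 0.0029). PSPH, also of serine synthesis, differed by -0.45. Its call was lost in several settings, among them the amiloride and TG003 groups fitted alone (adjusted p = 0.082). SLC43A1, a carrier of large neutral amino acids, was also lower (-1.38 ± 0.18, adjusted p = 6.4e-05).

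These enzymes are known targets of ATF4, the transcription factor of the amino acid response. ATF4 itself read 11.88, 11.89 and 11.75 under amiloride, 12.41, 12.54 and 12.56 under TG003, and 11.79, 11.95 and 11.98 under DMSO. Against DMSO amiloride differed by -0.07 (adjusted p = 0.73), and ATF4 rose by 0.59 under TG003 (adjusted p = 0.00014). ASNS, asparagine synthetase, read 6.86, 7.02 and 6.76 under amiloride, 8.0, 8.08 and 8.02 under TG003, and 7.67, 7.61 and 7.51 under DMSO (difference -1.15 ± 0.19, adjusted p = 0.00045). Its amiloride arrays lay close to the background reference. CHAC1, which degrades glutathione, differed by -1.27 ± 0.27 (adjusted p = 0.0035). Of all 22 measured regulators of this stress response, 3 were lower under amiloride and 2 higher (13.6% and 9.09%). Among all genes above the reference 11.1% were lower and 25.6% higher. The response's kinases EIF2AK4 (GCN2) and EIF2AK2 (PKR) were the higher ones, at 0.63 ± 0.08 (adjusted p = 3.2e-05) and 0.86 ± 0.22 (adjusted p = 0.014). The PKR call was lost without the third amiloride array (adjusted p = 0.062) or the third TG003 array (adjusted p = 0.073). Among 20 synthetases and their tRNA exporter 5 were lower and 4 higher (25% and 20%, beside the same 11.1% and 25.6%). The lower count dropped to 2 without the third amiloride array and to 3 without the first or second TG003 array.

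The composite element that ATF4 binds was searched as TGATGNAA on either strand. It occurred in 2 of 13 windows of the serine, folate and amino acid synthesis list (15.4%), those of ASNS and GOT1. The windows of PHGDH, PSAT1 and MTHFD2 held none. Of 19 stress regulators with a window 3 held it (15.8%), against 3.67% of all windows. The ASNS window is shown because its element is a well studied ATF4 site, chr7:97872359-97872658 (minus strand), with the match in capitals.
ASNS: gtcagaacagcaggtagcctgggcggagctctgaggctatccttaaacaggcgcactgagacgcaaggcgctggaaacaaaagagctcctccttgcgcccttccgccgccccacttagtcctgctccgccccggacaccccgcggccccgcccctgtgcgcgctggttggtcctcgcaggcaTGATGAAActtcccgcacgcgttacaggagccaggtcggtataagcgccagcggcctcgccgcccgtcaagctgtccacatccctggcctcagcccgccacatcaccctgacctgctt

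**Figure D3:**
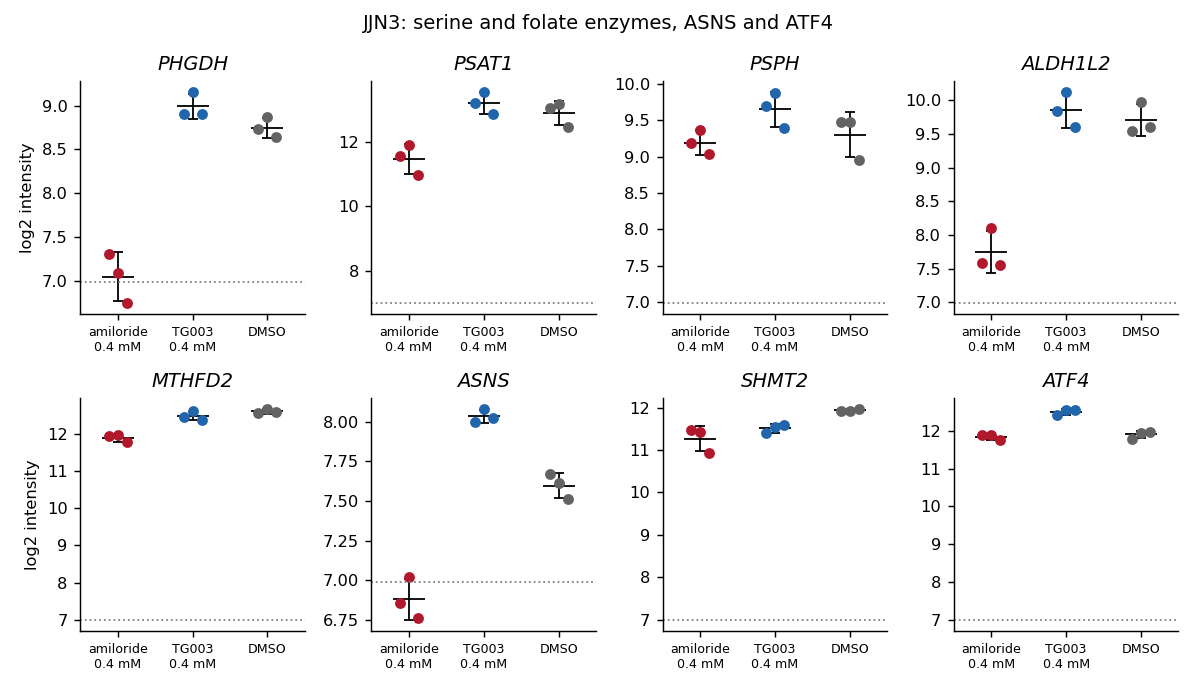
Log2 intensity of serine, folate and amino acid genes, PSPH among them, and of ATF4 in each JJN3 array under amiloride, TG003 and DMSO. Points are arrays, bars the mean and SD of 3 arrays, and the dotted line the background reference of 6.99. All amiloride arrays of PHGDH, PSAT1 and ALDH1L2 lie below all others, and all TG003 arrays of ATF4 lie above all others.

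The 4 CLK kinase genes, whose proteins TG003 inhibits, differed between the drugs without exception, and 3 were lower under amiloride. CLK1 read 8.23, 8.44 and 8.63 under amiloride, 9.06, 9.34 and 8.85 under TG003, and 7.46, 7.75 and 7.61 under DMSO. It rose under both drugs, by 0.83 with amiloride (adjusted p = 0.0018) and by 1.48 with TG003 (adjusted p = 2.2e-05), and differed between them by -0.65 ± 0.16 (adjusted p = 0.0084). CLK2 read 9.24, 9.32 and 9.41 under amiloride, 10.07, 10.50 and 10.27 under TG003, and 9.33, 9.41 and 9.47 under DMSO (difference -0.96 ± 0.10, adjusted p = 7.8e-06). CLK4 read 6.52, 6.56 and 6.82 under amiloride, 7.5, 7.87 and 7.34 under TG003, and 6.39, 6.49 and 6.46 under DMSO (difference -0.93 ± 0.13, adjusted p = 0.00017). For CLK2 and CLK4 amiloride differed from DMSO by -0.08 and 0.19 (adjusted p = 0.75 and 0.48), while TG003 raised them by 0.88 and 1.12 (adjusted p = 2.7e-05 and 6.9e-05). CLK4 lay above the background reference in the TG003 arrays and below it in the others. CLK3 ran the other way, with 10.65, 10.49 and 10.38 under amiloride, 10.10, 10.16 and 10.02 under TG003, and 10.19, 10.12 and 10.25 under DMSO (difference 0.42 ± 0.09, adjusted p = 0.0033).

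Of 47 measured core spliceosome genes, 17 (36.2%) were higher under amiloride than under TG003 and 1 was lower. Among all genes above the reference 25.6% were higher and 11.1% lower. The higher count was 13 without the third TG003 array, and the lower count 3 after another quantile normalization. Amiloride raised 18 of the 47 and lowered 2 against DMSO, and TG003 raised 3 and lowered 2. Over all genes amiloride raised 8.65% and lowered 6.12%, and TG003 raised 3.74% and lowered 5.64%. The splicing helicases DHX16, DHX8 and DHX15 differed by 0.70 ± 0.08, 0.67 ± 0.09 and 0.65 ± 0.10 (adjusted p = 1.8e-05, 0.00012 and 0.00038). U2AF2, which reads the polypyrimidine tract, differed by 0.62 ± 0.10 (adjusted p = 0.00031). PRPF8, the scaffold of the catalytic core, read 15.32, 15.32 and 15.25 under amiloride, 14.26, 14.60 and 14.31 under TG003, and 15, 15.20 and 15.09 under DMSO, so it was low under TG003 (difference 0.91 ± 0.16, adjusted p = 0.0011). Of 12 measured SR proteins only SRSF8 (0.97 ± 0.11, adjusted p = 2e-05) and SRSF4 (0.59 ± 0.07, adjusted p = 4.3e-05) were called, both higher under amiloride.

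Among 11 measured factors of nonsense-mediated decay, which removes RNAs with early stop codons, 3 were higher under amiloride and 2 lower. These were 27.3% and 18.2%, beside 25.6% and 11.1% among all genes above the reference. The kinase SMG1 and the helicase UPF1 differed from DMSO under amiloride by 0.16 and 0.11 (adjusted p = 0.6 and 0.72), and rose under TG003 by 0.81 and 0.65 (adjusted p = 0.0013 and 0.0037). UPF2, which bridges UPF1 to the exon junction complex, rose under amiloride by 0.97 (adjusted p = 3.7e-05). SMG8, a regulator of SMG1, read 8.63, 8.54 and 8.55 under amiloride, 7.90, 7.58 and 7.15 under TG003, and 7.66, 7.55 and 7.63 under DMSO (difference 1.03 ± 0.15, adjusted p = 0.00017).

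**Figure D4:**
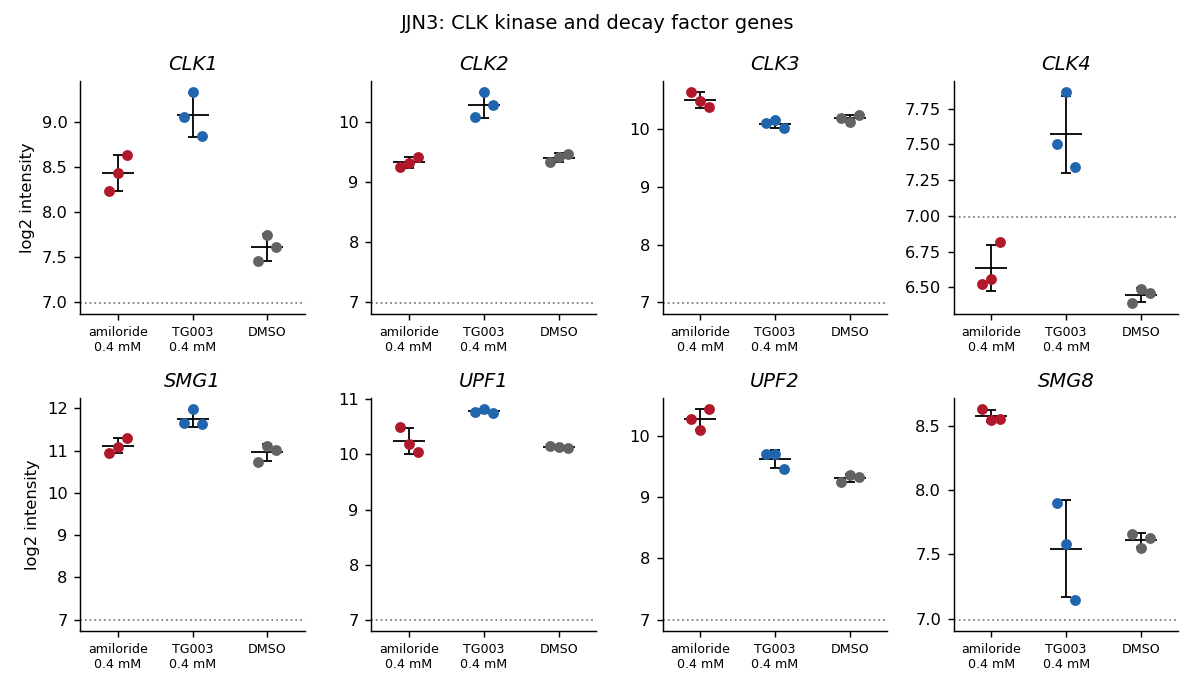
Log2 intensity of the 4 CLK genes and of 4 decay factor genes in each JJN3 array under amiloride, TG003 and DMSO. Points are arrays, bars the mean and SD of 3 arrays, and the dotted line the background reference of 6.99. In CLK2, CLK4, SMG1 and UPF1 all TG003 arrays lie above all others, and in UPF2 and SMG8 all amiloride arrays do.

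HEXIM1, the inhibitor of the elongation kinase P-TEFb, was raised by amiloride. It read 10.86, 10.73 and 10.91 under amiloride, 9.11, 9.22 and 9.24 under TG003, and 9.14, 9.16 and 9.31 under DMSO. The amiloride arrays stood clear of both other groups, 3.12-fold above TG003 (1.64 ± 0.13 log2, adjusted p = 9.1e-07). Of 17 measured elongation genes 6 were higher under amiloride than under TG003 and 1 lower (35.3% and 5.88%). Among all genes above the reference the shares were 25.6% and 11.1%. Against DMSO amiloride raised 12 of the 17 and TG003 3, beside 8.65% and 3.74% of all genes. CDK13, a kinase of the polymerase tail, differed by 0.74 ± 0.10 (adjusted p = 0.0001). Of 15 TFIID subunits, which seat the polymerase at promoters, 5 were higher and none lower (33.3% higher, beside 25.6% of genes above the reference). TAF5 read 11.08, 10.78 and 10.25 under amiloride, 9.61, 9.39 and 9.40 under TG003, and 9.59, 9.33 and 9.39 under DMSO (difference 1.23 ± 0.17, adjusted p = 8.8e-05). The TFIID count was 3 without the second amiloride array or the third TG003 array.

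MYC differed by -0.24 ± 0.12 (adjusted p = 0.22), with a 95% interval between -0.50 and 0.02 on the log2 scale. Of 27 measured genes of MYC and ribosome biogenesis 11 were higher under amiloride and none lower (40.7% higher, beside 25.6% of genes above the reference). The count was 7 without the third TG003 array and with the amiloride and TG003 groups alone. RRS1, an assembly factor of the large subunit, read 11.54, 11.55 and 12.23 under amiloride, 10.64, 10.90 and 10.36 under TG003, and 10.30, 10.22 and 10.08 under DMSO (difference 1.14 ± 0.19, adjusted p = 0.00067). Of 24 ribosomal protein genes 1 was called between the drugs, lower under amiloride, and all 24 had a 95% interval within 2-fold.

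Of 28 proteasome subunits 12 were higher under amiloride than under TG003 (42.9%, beside 25.6% of all genes above the reference) and none lower, and 27 of the 28 lay above 0, with a median of 0.36. Without the third TG003 array the count was 7. PSMD12, of the regulatory lid, read 11.81, 11.72 and 12 under amiloride, 10.78, 10.81 and 10.65 under TG003, and 10.95, 10.97 and 10.76 under DMSO (difference 1.10 ± 0.10, adjusted p = 2.9e-06). PSMD6, also of the lid, differed by 1.0 ± 0.10 (adjusted p = 4.9e-06). Of 16 cytosolic heat shock genes 6 were higher and none lower (37.5% higher, beside the same 25.6%). Among the 6 was HSPA1A, the inducible HSP70 (0.90 ± 0.12, adjusted p = 6.1e-05). HSPA1A has a near-identical copy, and probes cannot be assumed to tell the copies apart. Of 19 chaperones of the endoplasmic reticulum 3 were called higher (15.8%). That count was 1 without the first or second amiloride array or the second TG003 array. DNAJB11, a partner of BiP, was called in all alternatives run (0.81 ± 0.12, adjusted p = 0.00023). The antioxidant response element, searched on both strands as TGACNNNGC, occurred in 5 of 23 proteasome windows (21.7%), against 13.6% of all windows.

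The aryl hydrocarbon receptor is a sensor of foreign compounds. CYP1B1, a cytochrome P450 it induces, read 7.32, 7.79 and 7.24 under amiloride, 5.38, 5.16 and 5.06 under TG003, and 5.35, 5.88 and 5.40 under DMSO. Its amiloride arrays lay above the background reference and all others below it, so the difference of 2.25 ± 0.17 (adjusted p = 4.6e-07) gives no reliable fold. NQO1, a quinone reductase, read 8.86, 8.43 and 8.76 under amiloride, 7.57, 7.24 and 6.92 under TG003, and 7.88, 7.66 and 7.5 under DMSO (difference 1.44 ± 0.14, adjusted p = 7.8e-06). The receptor gene AHR differed by 0.79 ± 0.14 (adjusted p = 0.00071). Of 9 measured genes these 3 were called, all higher (33.3%, beside 25.6% higher among all genes above the reference). The receptor's core element GCGTG, on either strand, occurred in 5 of 7 windows (71.4%), against 36.3% of all windows. AHR and NQO1 were called and had a window with a match. The NQO1 window is shown because NQO1 had the larger difference, chr16:69726511-69726810 (minus strand), with the match in capitals.
NQO1: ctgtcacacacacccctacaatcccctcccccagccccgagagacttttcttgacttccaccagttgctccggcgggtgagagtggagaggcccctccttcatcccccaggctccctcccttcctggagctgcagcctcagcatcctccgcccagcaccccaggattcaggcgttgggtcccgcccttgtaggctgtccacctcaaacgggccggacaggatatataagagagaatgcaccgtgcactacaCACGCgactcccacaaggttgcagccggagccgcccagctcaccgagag

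NQO1 also belongs to the NRF2 list of oxidative stress genes, where 6 of 20 were higher and 2 lower (30% and 10%). Among all genes above the reference the shares were 25.6% and 11.1%. The subunits of glutamate-cysteine ligase, the first enzyme of glutathione synthesis, split. GCLM differed by 0.68 ± 0.11 (adjusted p = 0.00032), with a fall of 0.76 under TG003, and GCLC by -0.80 ± 0.11 (adjusted p = 0.0001), with a fall of 0.63 under amiloride. The lower count was 4 without the first amiloride array, and 1 without the second amiloride array or the third TG003 array.

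Of 17 clock genes, 5 were higher under amiloride than under TG003 and 1 lower (29.4% and 5.88%). The shares were 25.6% and 11.1% among all genes above the reference, and 10.5% and 6.41% among all genes. Of the 17 clock genes 7 lay above the reference. CLOCK read 10.54, 10.61 and 10.69 under amiloride, 9.45, 9.54 and 9.49 under TG003, and 9.77, 9.97 and 9.83 under DMSO (difference 1.12 ± 0.09, adjusted p = 1.3e-06). The nuclear receptors NR1D2 and NR1D1, which repress clock genes, differed by 1.14 ± 0.15 and 1.05 ± 0.21 (adjusted p = 8.4e-05 and 0.002). The cryptochrome CRY1 differed by 0.85 ± 0.13 (adjusted p = 0.00032).

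Caspases carry out apoptosis, and death receptors start it from the cell surface. Of 19 caspases, their inhibitors and death receptors, 9 (47.4%) were higher under amiloride than under TG003 and 2 lower (10.5%), beside 25.6% higher and 11.1% lower among all genes above the reference. The higher count was 6 without the third TG003 array. The lower count was 1 without the third amiloride array and 5 after another quantile normalization. TNFRSF10A, a receptor for the death ligand TRAIL, read 9.06, 9.01 and 8.95 under amiloride, 7.36, 7.66 and 7.66 under TG003, and 7.58, 7.76 and 8.07 under DMSO (difference 1.45 ± 0.13, adjusted p = 3e-06). CASP8, which that receptor activates, differed by 0.80 ± 0.10 (adjusted p = 3.1e-05), and the executioner caspase CASP6 by 1.12 ± 0.15 (adjusted p = 6.5e-05). In the BCL2 family 2 of 17 genes were called, 1 higher and 1 lower (5.88% each). MCL1, the survival factor of plasma cells, read 13.12, 13.11 and 13.14 under amiloride, 12.16, 12.54 and 12.27 under TG003, and 12.23, 12.53 and 12.56 under DMSO (difference 0.80 ± 0.11, adjusted p = 8.3e-05). BCL2L11, which encodes the death activator BIM, differed by -0.64 ± 0.12 (adjusted p = 0.0014), with a rise of 0.44 under TG003 (adjusted p = 0.029).

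Of 21 chemokines, receptors and RGS genes 9 (42.9%) were higher under amiloride than under TG003 and 1, RGS1, lower (4.76%). Among all genes above the reference 25.6% were higher and 11.1% lower, and among all genes 10.5% and 6.41%. Above the reference lay 11 of the 21. Against DMSO amiloride lowered 4 and TG003 8, beside 6.12% and 5.64% of all genes. CXCL16, a membrane-bound chemokine, read 8.13, 7.85 and 7.46 under amiloride, 6.11, 6.34 and 6.72 under TG003, and 7.64, 7.45 and 7.61 under DMSO (difference 1.42 ± 0.15, adjusted p = 9.3e-06). Its TG003 arrays all lay below the background reference. In the interferon list 6 of 26 were higher and 1 lower (23.1% and 3.85%). The shares were 25.6% and 11.1% among all genes above the reference, and 10.5% and 6.41% among all genes. Above the reference lay 6 of the 26. The higher count was 3 without the second amiloride array or the third TG003 array. IFITM1, a membrane antiviral factor, differed by 1.74 ± 0.11 (adjusted p = 9.9e-08), and IFITM2 by 1.86 ± 0.17 (adjusted p = 2.7e-06), and against DMSO they fell by 1.27 and fell by 1.51 under TG003. These genes are close copies, and probes may bind both. Of 22 NF-kB genes 6 were lower and 2 higher (27.3% and 9.09%, beside 11.1% and 25.6% of genes above the reference). The higher count was 1 without the first or second amiloride array or the first TG003 array. NFKBIA, the inhibitor of NF-kB, rose under TG003 by 0.91 (adjusted p = 0.00025), and TNFAIP3, a feedback inhibitor, fell under amiloride by 1.10 (adjusted p = 0.00015). TYK2, a kinase of cytokine receptors, read 7.23, 7.23 and 7.12 under amiloride, 8.43, 8.54 and 8.29 under TG003, and 7.89, 7.84 and 7.99 under DMSO (difference -1.23 ± 0.09, adjusted p = 3.5e-07).

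The MAPK feedback and immediate early genes, which are switched on by growth factor signalling and then damp it, numbered 28. Of these 9 were higher under amiloride than under TG003 and none lower (32.1% higher). The higher share was 25.6% among all genes above the reference and 10.5% among all genes, and 14 of the 28 lay above it. The phosphatase DUSP5, which acts on ERK in the nucleus, differed by 0.96 ± 0.19 (adjusted p = 0.0022), and fell by 0.80 under amiloride and fell by 1.76 under TG003 against DMSO. SPRY1 and SPRY2, inhibitors of receptor kinase signalling, differed by 0.76 ± 0.13 and 0.56 ± 0.09 (adjusted p = 0.00079 and 0.00057), and their TG003 means of 6.51 and 6.76 were below the background reference. Among 18 p53 targets 3 were higher and 1 lower (16.7% and 5.56%), or 2 lower without the second amiloride array. The lower one was DDB2, a sensor of ultraviolet damage, which averaged 7.31 under amiloride, 8.41 under TG003 and 8.22 under DMSO (difference -1.10 ± 0.12, adjusted p = 1.1e-05).

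HLA class II genes present antigen to helper T cells. Against DMSO amiloride lowered 10 of 12 and TG003 lowered 6, beside 6.12% and 5.64% of all genes. Between the drugs 5 were lower under amiloride (41.7%, beside 11.1% of all genes above the reference), none was higher, and all 12 differences were below 0. The lower count was 3 when only genes above the background reference were tested. CIITA, the master regulator of the class, read 7, 7.21 and 7.01 under amiloride, 7.73, 8.07 and 7.74 under TG003, and 8.23, 8.25 and 8.24 under DMSO (difference -0.77 ± 0.13, adjusted p = 0.00061). HLA-DMA, which helps load peptide, read 9.10, 9.25 and 8.44 under amiloride, 10.28, 10.79 and 9.99 under TG003, and 11.04, 11.07 and 10.98 under DMSO (difference -1.43 ± 0.19, adjusted p = 6.3e-05).

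Among 16 genes of plasma cell identity, amiloride lowered 3 and raised 1 against DMSO, and TG003 lowered 7. Over all genes amiloride lowered 6.12% and raised 8.65%, and TG003 lowered 5.64%. Between the drugs 4 of the 16 were higher under amiloride than under TG003 and 1 lower (25% and 6.25%). Among all genes above the reference the shares were 25.6% and 11.1%, so the list did not exceed them. JCHAIN, the joining chain of secreted antibody, differed by 0.85 ± 0.16 (adjusted p = 0.0016). CD79B, of the B cell receptor and in the separate list of B cell markers, differed by 1.09 ± 0.17 (adjusted p = 0.00029). IRF4, on which myeloma cells depend, differed by 0.70 ± 0.15 (adjusted p = 0.0041), but missed the threshold with the amiloride and TG003 groups fitted alone (adjusted p = 0.071). ITGB7 differed by 0.71 ± 0.19 (adjusted p = 0.015) and lost its call without the first amiloride array (adjusted p = 0.076) or the third TG003 array (adjusted p = 0.059). MAF itself did not differ detectably (0.00 ± 0.18, adjusted p = 0.99), with a 95% interval between -0.39 and 0.39. Of 14 T and NK cell markers CD28, which plasma cells can also carry, was the 1 called (1.44 ± 0.15, adjusted p = 1.2e-05).

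**Figure D5:**
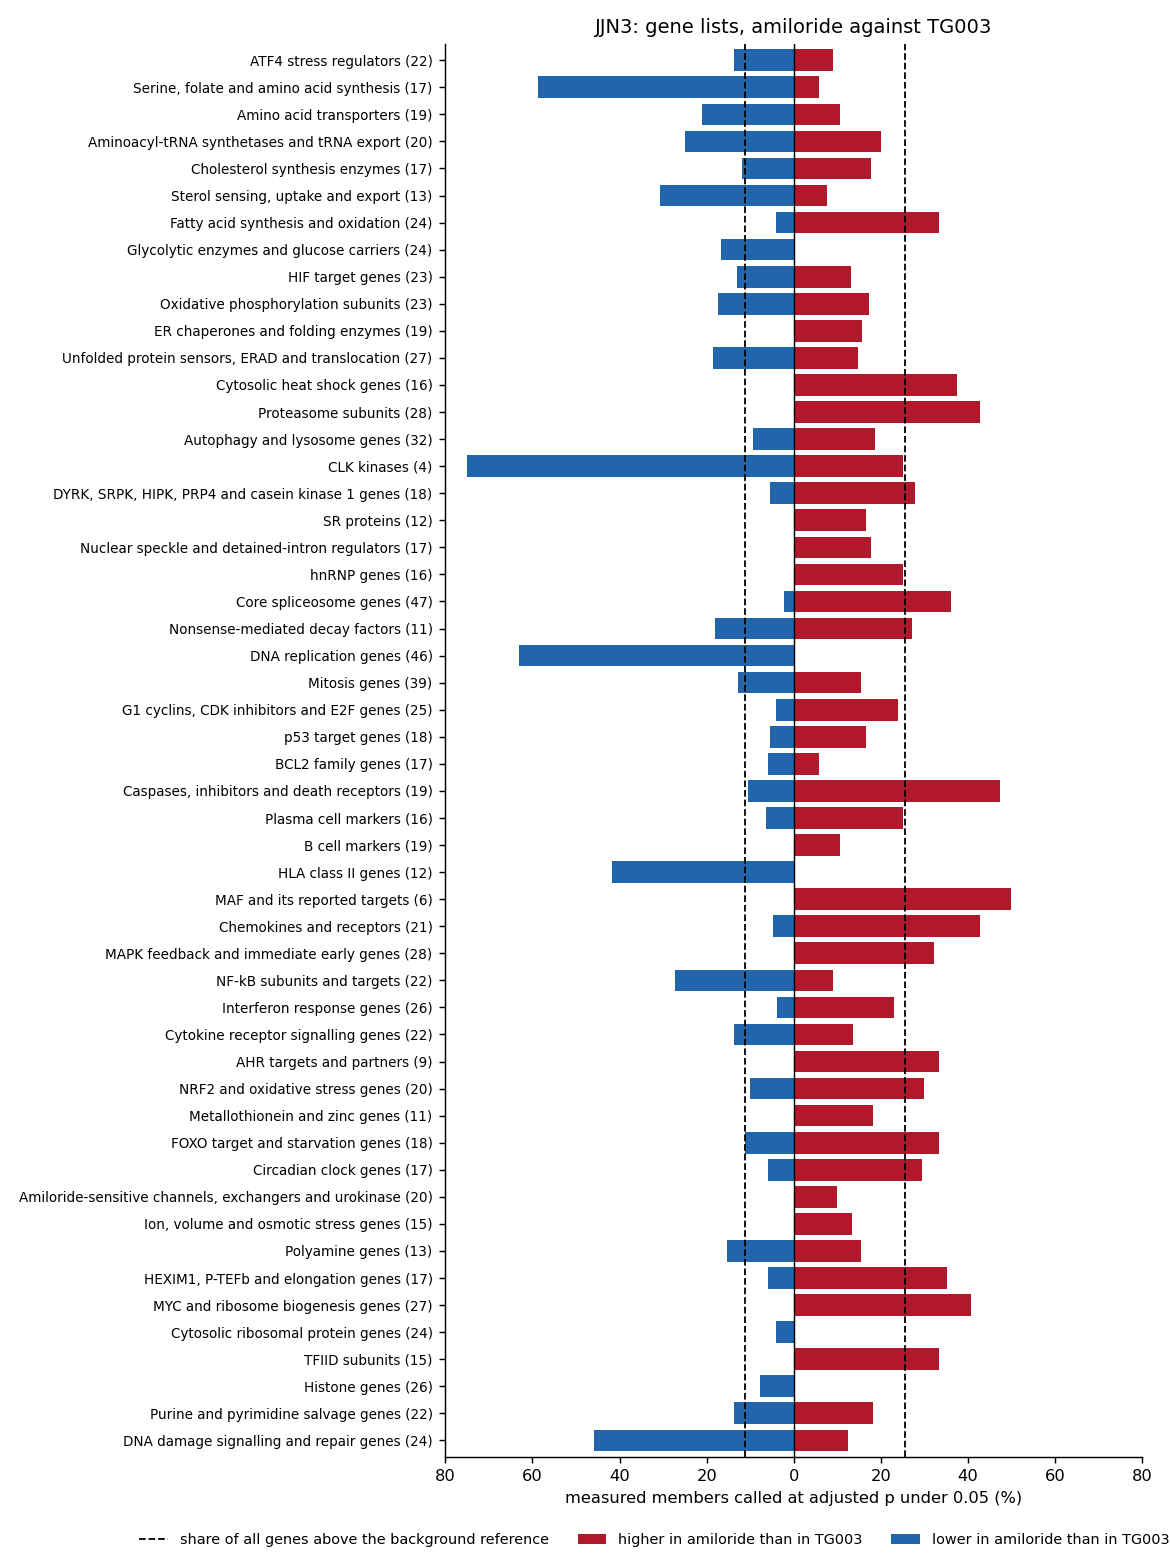
Share of measured members (horizontal, %) called between amiloride and TG003 in 52 gene lists, with the number measured in brackets. Red bars to the right are genes higher under amiloride and blue bars to the left genes lower under amiloride. Dashed lines give the shares among all genes above the background reference, 25.6% higher and 11.1% lower. The longest bars to the left are those of CLK, replication and serine genes.

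Cholesterol synthesis is run by a set of enzymes under common sterol control. Of 17 cholesterol synthesis enzymes, amiloride lowered 13 and TG003 12 against DMSO (beside 6.12% and 5.64% of all genes), with medians of -0.53 and -0.74. Between the drugs 3 were higher and 2 lower (17.6% and 11.8%, beside 25.6% and 11.1% of genes above the reference). For 16 of 17 the 95% interval lay within 2-fold. The higher count was 6 and the lower 0 with centred arrays, and the lower was 0 without the third amiloride array or the first TG003 array and 1 without any of the others except the second amiloride array. HMGCS1, an early enzyme of the route, read 10.95, 10.93 and 11.27 under amiloride, 10.23, 10.24 and 10.12 under TG003, and 12.55, 12.99 and 12.99 under DMSO (difference 0.85 ± 0.19, adjusted p = 0.0059). Both drugs thus lay well below DMSO, TG003 farther. INSIG1, the sterol sensor, fell by 2.03 with amiloride and fell by 2.18 with TG003, and the drugs differed by 0.15 ± 0.23 (adjusted p = 0.71). In fatty acid metabolism 8 of 24 genes were higher and 1 lower (33.3% and 4.17%, beside the same 25.6% and 11.1%). The higher count was 5 without the second amiloride array or the first TG003 array. ACSL5, which activates fatty acids, differed by 1.22 ± 0.13 (adjusted p = 9.3e-06), with a fall of 1.05 under TG003.

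Glycolysis turns glucose into pyruvate. Of 24 measured genes of enzymes and glucose carriers, amiloride lowered 18 and TG003 15 against DMSO, with medians of -0.64 and -0.53. Over all genes the drugs lowered 6.12% and 5.64%. Between the drugs 4 of the 24 were lower under amiloride and none higher (16.7% lower, beside 11.1% of all genes above the reference). ALDOC, an aldolase, read 8.63, 8.59 and 8.15 under amiloride, 9.37, 9.51 and 9.69 under TG003, and 10.85, 11 and 11.39 under DMSO (difference -1.07 ± 0.14, adjusted p = 6.1e-05). PDK1, which holds pyruvate back from mitochondria, fell by 2.38 with amiloride and fell by 1.51 with TG003 (difference -0.87 ± 0.10, adjusted p = 2.2e-05). The glucose carrier SLC2A1 fell by 0.64 with amiloride and fell by 0.54 with TG003, and the drugs differed by -0.10 ± 0.10 (adjusted p = 0.56). Of 23 HIF targets, genes of the oxygen response, amiloride lowered 11 and TG003 13 against DMSO. Between the drugs 3 were called in each direction (13% each, beside 25.6% higher and 11.1% lower among all genes above the reference). HIF1A, the oxygen-sensitive factor, was higher under amiloride (0.73 ± 0.09, adjusted p = 6.3e-05), with 12.78 under amiloride, 12.05 under TG003 and 12.05 under DMSO. Its target P4HA1, a collagen hydroxylase, differed by -0.75 ± 0.18 (adjusted p = 0.0079) and averaged 11.03 under amiloride, 11.78 under TG003 and 13.04 under DMSO.

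Of the subunits of the channel that amiloride blocks, SCNN1A, the alpha subunit, averaged 4.08 under amiloride, 4.14 under TG003 and 4.08 under DMSO, all below the background reference (difference -0.06 ± 0.05, adjusted p = 0.46). SCNN1B, the beta subunit, was well above it, with 10.29, 10 and 9.82 under amiloride, 9.29, 9.54 and 9.70 under TG003, and 10.02, 10.04 and 10.66 under DMSO (difference 0.53 ± 0.16, adjusted p = 0.035). That call was lost without the first or second amiloride array (adjusted p = 0.16 and 0.075) or the first or second TG003 array (adjusted p = 0.15 and 0.062). Of 20 genes of amiloride-sensitive channels and exchangers 2 were higher than under TG003 and none lower (10.0%, beside 10.5% higher among all genes), and with any 1 of those 4 arrays left out 1 was higher. Above the reference lay 3 of the 20. SLC9A9, an endosomal sodium-proton exchanger, averaged 11.75 under amiloride, 10.83 under TG003 and 10.34 under DMSO (difference 0.92 ± 0.18, adjusted p = 0.0018). SLC12A2, the sodium, potassium and chloride cotransporter, averaged 10.38 under amiloride, 9.34 under TG003 and 9.03 under DMSO and differed by 1.04 ± 0.07 (adjusted p = 2.6e-07).

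In KMS12-BM, with amiloride at 0.1 mM and TG003 at 0.4 mM, the same genes had the following levels, which the unequal doses bar from comparison. IGF1 averaged 4.78 ± 0.09 under amiloride, 4.76 ± 0.12 under TG003 and 4.88 ± 0.09 under DMSO (SD, n = 3 each), below the background reference. PHGDH averaged 9.65 ± 0.15 under amiloride, 9.36 ± 0.12 under TG003 and 9.02 ± 0.15 under DMSO. TK1 averaged 7.21 ± 0.10 under amiloride, 9.56 ± 0.23 under TG003 and 8.86 ± 0.13 under DMSO. HEXIM1 averaged 8.84 ± 0.12 under amiloride, 8.85 ± 0.15 under TG003 and 8.89 ± 0.34 under DMSO. CLK1 averaged 9.34 ± 0.17 under amiloride, 8.57 ± 0.11 under TG003 and 7.54 ± 0.33 under DMSO.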

How the data were processed

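RNA was hybridised to Affymetrix human transcriptome arrays. The submitters' processing notes name RMA, and the deposited log2 values carry its background correction and normalization. No genome build is named in the labels or headers used. The labels call the sample total RNA while the series text speaks of poly A+ RNA, and the third KMS12-BM amiloride array bears a JJN3 cell line tag against its title. That array enters the shared estimate of spread, the choice of brightest probe set and the KMS12-BM amiloride means. Array numbers follow the serial codes in the titles.

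Of 70523 probe sets, 25324 were listed in the platform annotation, 23781 with 1 symbol, 1543 with several and 45199 unlisted. The brightest probe set per symbol gave 22465 genes. Array medians ranged from 4.5 in the second JJN3 amiloride array to 4.69 in the third JJN3 TG003 array. All other arrays lay between 4.53 and 4.63. Within-group correlations in JJN3 over genes ranged from 0.9955 to 0.9984. A limma model (version 3.58.1 in R 4.3.3) with 6 group means over 18 arrays was fitted, with moderated two-sided tests and Benjamini-Hochberg adjustment over all genes. The script was tested on simulated data. Members and gene lists were chosen with earlier results of these data known. Named genes are the 25 largest called differences in each direction with separate arrays and a mean above the background reference, called or role-defining list members, and a few fixed genes (the CLK kinases, SCNN1A, MYC, MAF, CCND2, ITGB7). The number of arrays limits precision.

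Whether arrays with the same number deviate together was checked by correlating deviations from group means. Between TG003 and DMSO the correlations were 0.24, 0.47 and 0.43, which pairs these arrays. Between amiloride and TG003 they were 0.01, 0.29 and 0.06, and between amiloride and DMSO 0.17, 0.11 and -0.1, which does not. Alternatives covered the arrays fitted, the block, normalization, dim genes, probe set choice, variance model and leaving out each array.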

Additional observations from a re-analysis of the deposited data

How the results depend on the processing

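With the amiloride and TG003 groups fitted alone, 2615 genes were called between them, against 3807 with all arrays in the fit. In that fit 1739 were higher under amiloride than under TG003, against 2366, and 876 lower, against 1441. With each array centred on its median 779 were lower. Centring also left 413 genes higher under TG003 than under DMSO, against 841, and 23.3% of genes called between TG003 and DMSO were then higher, against 39.9%. For centring, the median difference of all genes between the drugs was 0.04, against -0.04. The cause of these shifts was not tested.

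Leaving out 1 array at a time gave 3031 to 4035 called genes between amiloride and TG003, with 1799 to 2381 higher and 1140 to 1654 lower. Between amiloride and DMSO the range was 2533 to 2916, with 1466 to 1864 higher and 995 to 1281 lower. Between TG003 and DMSO it was 1465 to 1841, with 509 to 751 higher and 893 to 1182 lower; the higher count was 509 without the first and 560 without the second DMSO array.

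With the replicate number as a block, 4355 genes were called between amiloride and TG003, 3778 between amiloride and DMSO and 2485 between TG003 and DMSO, and no count moved by over 1.5 times. Of 381 named genes called between the drugs, 141 missed the threshold in at least 1 setting and none changed sign. With the amiloride and TG003 groups fitted alone 92 of the 381 missed it. Of the 50 largest, 3 missed it in at least 1 setting. With 3 arrays a group and values compressed near background, small differences in dim genes cannot be resolved, and values below the reference of 6.99 have no reliable fold.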

Other observations

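Some genes of purine and nucleoside handling differed between the drugs. Of 22 measured salvage genes 4 were higher under amiloride than under TG003 and 3 lower (18.2% and 13.6%). Among all genes above the reference the shares were 25.6% and 11.1%. The highest member was AMPD1, described above. AMPD3, an AMP deaminase of blood cells, averaged 7.01 under amiloride, 6.26 under TG003 and 7.27 under DMSO (difference 0.75 ± 0.06, adjusted p = 1.1e-06 by limma). Its TG003 mean was below the background reference. ADK, which phosphorylates adenosine, fell by 0.87 under TG003 (adjusted p = 0.00039), and its amiloride difference from DMSO was -0.32 (adjusted p = 0.13). The nucleoside carriers SLC29A1 and SLC29A2 were lower under amiloride than under TG003, at -0.58 ± 0.12 and -0.67 ± 0.15 (adjusted p = 0.0038 and 0.0042). Of 10 genes in common use as references for RNA quantification, 3 were lower and 1 higher (30% and 10%, beside the same 11.1% and 25.6%). The purine salvage enzyme HPRT1 and the lysosomal enzyme GUSB, both on that list, were lower under amiloride, at -0.57 ± 0.12 and -0.86 ± 0.13 (adjusted p = 0.004 and 0.00025).

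Some single genes outside the larger groups also separated the drugs. TXNIP, a brake on glucose uptake, averaged 10.98 under amiloride, 9.75 under TG003 and 11.57 under DMSO (difference 1.24 ± 0.25, adjusted p = 0.0026). WIPI1, of autophagosome formation, averaged 8.96 under amiloride, 7.94 under TG003 and 9.21 under DMSO (difference 1.02 ± 0.15, adjusted p = 0.00018). SLC30A1, a zinc exporter, rose by 0.70 under amiloride (adjusted p = 0.00023) and fell by 0.46 under TG003 (adjusted p = 0.0088).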
